A study of Rattus norvegicus with 8 samples.

Results

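Apolipoproteins are the protein components of the lipoprotein particles that carry fat and cholesterol in blood, and most of those in plasma are made by the liver. The 10 genes described here are Apoa1, Apoa2, Apoa4, Apoa5, Apob, Apoc1, Apoc2, Apoc3, Apoe and Apoh. They were chosen by symbol, with earlier results of these data known, from a table of 30562 annotated rat genes. Each of these symbols has 1 row there, and all 10 were among the 16591 genes that passed the filter on low counts. RNA was measured by sequencing in 8 liver libraries of male Wistar rats with a starting weight of 160 g, killed on day 37. There were 4 groups of 2 libraries, each library from a separate rat, out of 5 rats per group. Control rats received vehicle only. The atorvastatin group received 5 mg/kg per day of this inhibitor of cholesterol synthesis in drinking water for 30 days. The HCB group received hexachlorobenzene, a persistent chlorinated fungicide known to cause porphyria, by gavage at 100 mg/kg 3 times per week for 30 days. The combination group received both agents at these doses. The atorvastatin dose is the stated one, and the recipe of the drinking water in the labels gives a higher dose for a rat of this weight. Plasma lipids and lipoproteins were not analysed here.

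Apob is the structural protein of chylomicrons, very low density lipoprotein (VLDL) and low density lipoprotein, and a particle is built around each molecule of it. Apoa1 and Apoa2 are the main proteins of high density lipoprotein (HDL), and Apoa1 activates the enzyme that esterifies cholesterol on HDL. Apoc2 activates lipoprotein lipase, Apoc3 and Apoc1 inhibit lipolysis or particle uptake, Apoa5 promotes lipolysis, and Apoe is a ligand for receptors that clear remnant particles. Apoa4 is made mainly in the intestine, and in rodents also in liver. Apoh, also called beta-2-glycoprotein I, is a plasma protein that binds phospholipids and is carried partly on lipoproteins. The genes Apoa1, Apoc3, Apoa4 and Apoa5 form a cluster, and Apoe, Apoc1, Apoc2 and Apoc4 form another.

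The libraries labelled as unexposed to HCB and those labelled as exposed differ in ways that touch every HCB comparison below. All rats are labelled male, yet the Y-linked genes Kdm5d, Eif2s3y and Uty and the row named Ddx3 lay at 0.0474 to 0.559 CPM (read counts scaled to the normalised library size) in the 4 unexposed libraries and at 18.3 to 96.7 CPM in the 4 exposed ones. A further row named Ddx3y lay between 0.507 and 2.51 CPM in all 8 libraries. Afp, the fetal counterpart of albumin, was at 11414 to 29746 CPM in the unexposed libraries and at 70.1 to 145 CPM in the exposed ones. The summed level of 7 fetal hepatocyte markers was 37600 to 51391 CPM against 246 to 433 CPM. Since all 4 unexposed libraries stand on the same side, no HCB comparison could be made without them, and HCB exposure cannot be told apart from whatever else separates these animals. Comparisons of atorvastatin lie within each side. Assigned reads ranged from 29376942 to 51982004 per library, and the 10 genes together took between 2.54% and 3.69% of them. Reads outside exons made up 27.7% of all reads in Control replicate 1 and 34.0% in Atorvastatin replicate 1, against 7.46% to 19.5% in the other libraries. In CPM, each of the 10 genes was lower in both of these libraries than in replicate 2 of the same group. The 10 genes summed to 23320 against 36621 CPM in control and to 19742 against 28396 CPM with atorvastatin. The reason was not tested. Fewer cells of a type and less RNA per cell cannot be told apart in these bulk tissue data.

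The positions of the 10 genes are those of the deposited table, on the mRatBN7.2 build, and all are protein-coding. On chromosome 8, Apoa1 lies at 46527144 to 46529035 on the plus strand, Apoc3 at 46531478 to 46533583 on the minus strand, Apoa4 at 46539082 to 46541469 on the plus strand and Apoa5 at 46561229 to 46563816 on the plus strand. On chromosome 1, all on the minus strand, Apoc2 lies at 79329428 to 79334476, Apoc1 at 79346136 to 79350375 and Apoe at 79353916 to 79357932. The other 3 genes are apart from these clusters and from each other. Apob lies on chromosome 6 at 30844368 to 30892497, Apoh on chromosome 10 at 93310977 to 93356329 and Apoa2 on chromosome 13 at 83644470 to 83646355, all on the plus strand. Of the 10 genes, 1 overlaps another annotated gene. The 3′ part of Apoa4 overlaps AABR07073400.1 on the opposite strand, which had at most 1 read in any library. Reads were counted without strand, so reads in the shared bases, 46540732 to 46541469, cannot be told apart between both genes. Reads that fit both genes may have been left uncounted, which the low count of AABR07073400.1 does not settle. The level and place of Apoa4 below carry this limit.

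RefSeq promoter windows (GRCr8 build) were available for 6 of the 10 genes, Apoa4, Apoa5, Apoc1, Apoc2, Apoe and Apoh. The 250 bases before the start site are shown for 3 of them, because Apoa4 and Apoa5 are neighbours with some of the largest differences between exposed and unexposed libraries, and Apoc2 is a gene of the other cluster with a small difference. The windows are chr8:55435529-55435778 (plus strand) for Apoa4, chr8:55457621-55457870 (plus strand) for Apoa5 and chr1:88462366-88462615 (minus strand) for Apoc2. Capitals mark matches on either strand to AGGTCA, a nuclear receptor half-site, to CAAAGT, a core of the HNF4 site, or to TATAAA, a core promoter box.
Apoa4: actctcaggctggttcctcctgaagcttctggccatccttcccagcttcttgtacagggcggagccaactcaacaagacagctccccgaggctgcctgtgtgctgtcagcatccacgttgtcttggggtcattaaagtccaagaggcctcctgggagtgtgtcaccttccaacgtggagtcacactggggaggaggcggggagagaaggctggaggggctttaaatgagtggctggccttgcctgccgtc
Apoa5: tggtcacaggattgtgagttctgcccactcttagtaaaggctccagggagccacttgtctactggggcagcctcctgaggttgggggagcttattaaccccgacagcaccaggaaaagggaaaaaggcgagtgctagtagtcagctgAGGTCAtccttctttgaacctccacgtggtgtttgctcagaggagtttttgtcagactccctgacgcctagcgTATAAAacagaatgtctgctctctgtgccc
Apoc2: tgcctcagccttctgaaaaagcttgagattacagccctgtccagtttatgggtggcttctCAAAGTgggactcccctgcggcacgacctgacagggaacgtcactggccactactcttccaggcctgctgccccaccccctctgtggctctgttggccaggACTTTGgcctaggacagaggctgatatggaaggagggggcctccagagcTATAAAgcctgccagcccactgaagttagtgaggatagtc
In the Apoa5 window AGGTCA begins at -103 and TATAAA at -30 from the start site. In the Apoc2 window CAAAGT begins at -190, its reverse complement at -89, and TATAAA at -40. The Apoa4 window holds none of the 3 motifs. Over all 33469 RefSeq windows of this length, 14.1% held the half-site, 12.9% the HNF4 core and 12.9% the core promoter box on either strand. The motifs do not overlap each other here, and a match is a description of letters, not of a bound site.

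The order of the 10 genes by transcript level differed between unexposed and exposed libraries. Levels of different genes are compared per length, in TPM (counts divided by exonic length and scaled to the same total in each library). The exonic length of Apoc1 is given as 4120 bases, nearly its whole span, against 963 for Apoc2. The TPM, share and place of Apoc1 below rest on that length. In CPM the control means of Apoc1 and Apoc2 were 410 and 399. In the control group Apoa1 was highest at 5671 ± 502 TPM (SD, n = 2), followed by Apoh at 4622 ± 568, Apob at 3571 ± 526, Apoe at 2497 ± 394 and Apoc3 at 1921 ± 557 TPM. Apoc2 at 1061 TPM and Apoc1 at 253 TPM stood in the middle, and Apoa2 at 96.7, Apoa5 at 35.9 and Apoa4 at 14.1 TPM were lowest. Only Apoe and Apoc3 overlapped between libraries among neighbours in this order. The atorvastatin group had the same order, from Apoa1 at 6903 ± 353 TPM to Apoa4 at 18.9 ± 7.55 TPM, with no overlap between neighbours.

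In the HCB group Apoc3 was highest at 8041 ± 1803 TPM, ahead of Apoh at 4233 ± 704 and Apoe at 3477 ± 836 TPM, which overlapped each other. Apob followed at 2011 ± 446 TPM. Apoa2 at 1468 ± 158 TPM and Apoc2 at 1262 ± 564 TPM overlapped, as Apoc2 did with Apoa1 at 864 ± 324 TPM. The lowest 3, Apoa5 at 494 ± 88.1, Apoc1 at 361 ± 140 and Apoa4 at 308 ± 113 TPM, overlapped each other in turn. The combination group also had Apoc3 first at 7042 ± 465 TPM, then Apoh at 4014 ± 572, Apoe at 3953 ± 293 and Apob at 3034 ± 293 TPM. It had Apoa1 in place 7 at 704 ± 134 TPM, and its last 3 were Apoa5 at 550, Apoa4 at 494 and Apoc1 at 270 TPM. Neighbours that overlapped there were Apoh and Apoe, Apoc2 and Apoa1, and Apoa5 and Apoa4. The summed level of the 10 genes spanned 18356 to 21156 TPM in the unexposed libraries and 20634 to 24081 TPM in the exposed ones, so those ranges overlapped. The shares of that sum held by Apoc1, Apoc2, Apoe and Apoh overlapped too, and those of the other 6 genes did not. Apoa1 held 28.5% to 36.7% of that sum in unexposed libraries and 2.95% to 4.54% in exposed ones, and Apoc3 held 8.32% to 10.96% against 31.0% to 38.7%.

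**Figure D1:**
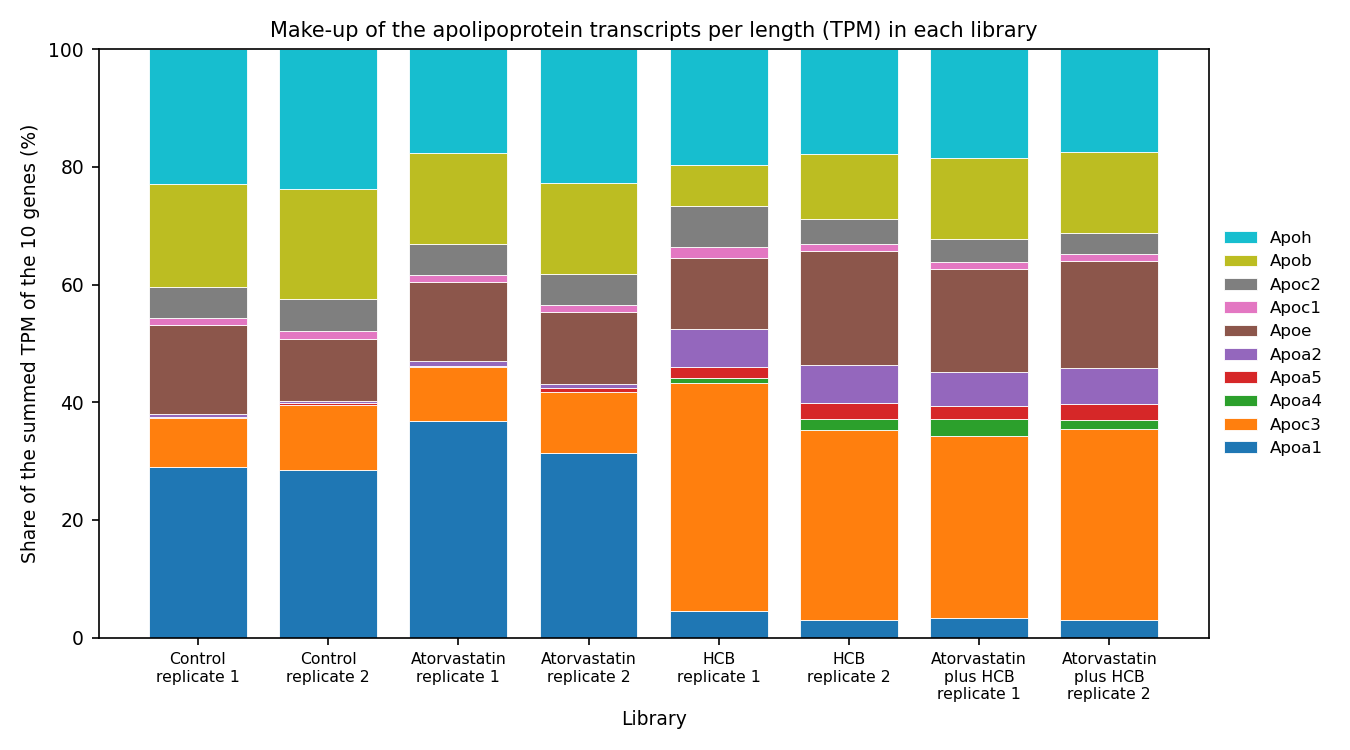
Share of the summed TPM of the 10 genes (%, vertical axis) held by each gene in each of the 8 libraries, 1 stacked bar per library. Apoa1 fills 28.5% to 36.7% of the 4 unexposed bars and 2.95% to 4.54% of the 4 bars of HCB-exposed groups, while Apoc3 fills 8.32% to 10.96% and 31.0% to 38.7%.

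Apoa1 was the 1 gene of the 10 that edgeR called lower in exposed than in unexposed libraries. On the CPM scale it was at 2055 and 3079 in the control libraries and at 2418 and 2964 in the atorvastatin libraries. It was at 777 and 358 CPM with HCB and at 508 and 348 CPM with the combination. The 4 exposed libraries were all below the 4 unexposed ones. In HCB against control Apoa1 fell by 2.18 on the log2 scale (SE 0.44, adjusted p = 0.005, edgeR) and by 2.65 (SE 0.45) in the combination against atorvastatin (adjusted p = 0.00191). Without HCB replicate 1 the first of these was -2.82 (adjusted p = 0.0102).

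Apoa2, the other major HDL protein, rose. It was at 16.5 and 21.1 CPM in the control libraries and at 24.6 and 28.5 CPM with atorvastatin. It was at 487 and 332 CPM with HCB and at 380 and 314 CPM with the combination. The lowest exposed library was over every unexposed one. Its log2 fold change was 4.45 ± 0.33 (SE) in HCB against control (edgeR adjusted p = 8.24e-06) and 3.71 ± 0.31 in the combination against atorvastatin (adjusted p = 2.43e-05). The 2 HDL proteins thus moved in opposite directions, and the ratio of Apoa1 to Apoa2 per length was 42.7 to 63.4 in unexposed libraries and 0.468 to 0.692 in exposed ones. This ratio and those below were chosen after the values were seen, and carry no test.

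Apoa4 rose most, and stood near the bottom of the order in every group. Its counts gave 5.38 and 10.6 CPM in the control libraries and 5.63 and 13.3 CPM with atorvastatin. They gave 199 and 270 CPM with HCB and 523 and 226 CPM with the combination. The groups with and without HCB did not overlap, and both combination libraries differed from each other more than both HCB libraries did. The log2 fold change of Apoa4 was 4.87 ± 0.57 (SE) in HCB against control (edgeR adjusted p = 0.000211) and 5.30 ± 0.58 in the combination against atorvastatin (adjusted p = 0.000141). Leaving out Control replicate 2 gave 5.47 (adjusted p = 0.00179) for the first. For the second, the value was 6.07 without Atorvastatin replicate 2 (adjusted p = 0.000215) and 4.61 without Atorvastatin plus HCB replicate 1 (adjusted p = 0.000299). Intestinal epithelium is a rich source of Apoa4. Summed levels of 6 markers of that tissue were 2.59 to 5.30 CPM in unexposed libraries and 0.902 to 1.71 CPM in exposed ones. Cdx1, Cdx2, Lct and Si were at 0 in both exposed groups, and Si also in the atorvastatin group. Only 3 of the 6 passed the filter on low counts, and a part of intestinal tissue in the Apoa4 result was not tested.

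Apoa5, which promotes the lipolysis of triglyceride, also rose. It was at 17.9 and 46.5 CPM in the control libraries and at 24.3 and 103 CPM with atorvastatin. It was at 586 and 600 CPM with HCB and at 661 and 606 CPM with the combination. Every exposed library was above every unexposed one, and the libraries of the atorvastatin group lay furthest apart. The log2 fold change was 4.20 ± 0.67 (SE) in HCB against control (edgeR adjusted p = 0.00168) and 3.31 ± 0.64 in the combination against atorvastatin (adjusted p = 0.00482). Without Control replicate 2 the first was 5.08 (adjusted p = 0.00485). The second was 2.62 without Atorvastatin replicate 1 (adjusted p = 0.00495) and 4.71 without Atorvastatin replicate 2 (adjusted p = 0.000142).

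Apoc3, an inhibitor of lipolysis and of remnant uptake, rose in both comparisons and was the highest gene per length in the exposed libraries. It was at 282 and 565 CPM in the control libraries and at 290 and 461 CPM with atorvastatin. It was at 3164 and 1826 CPM with HCB and at 2240 and 1834 CPM with the combination. Every exposed library was above every unexposed one. The log2 fold change was 2.56 ± 0.46 (SE) in HCB against control (edgeR adjusted p = 0.00245) and 2.44 ± 0.46 in the combination against atorvastatin (adjusted p = 0.00319). Without Control replicate 2 the first was 3.17 (adjusted p = 0.00555). The Apoa1 to Apoc3 ratio per length was 2.60 to 3.98 in unexposed libraries and 0.0907 to 0.117 in exposed ones. The ratio of Apoc3 to Apoc2, the activator of the same lipase, was 1.57 to 2.01 against 5.61 to 9.02.

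**Figure D2:**
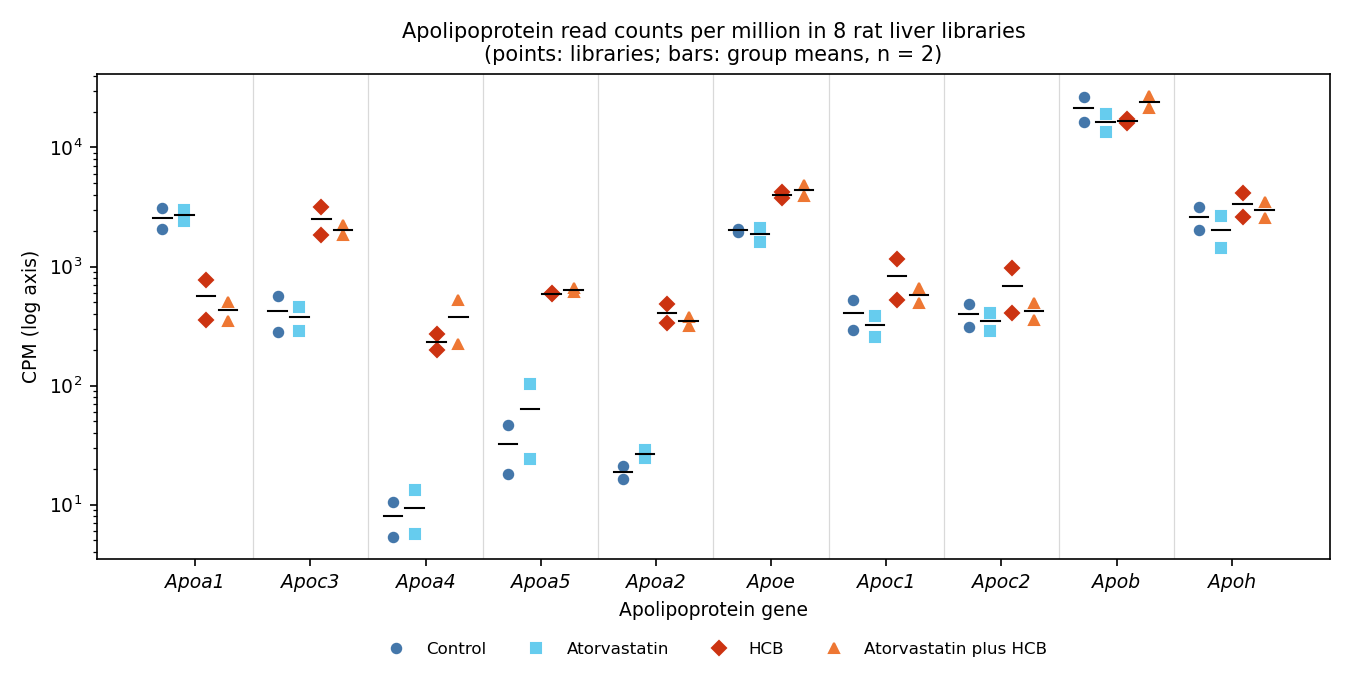
Level of each of the 10 genes in CPM (vertical log axis), by gene, with 1 point per library and a bar at the mean of each group of 2. Apoa1 sits lower, and Apoa2, Apoa4, Apoa5, Apoc3 and Apoe higher, in all 4 HCB-exposed libraries than in all 4 others, while Apob, Apoc1, Apoc2 and Apoh overlap.

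Apoe, the receptor ligand of remnants and VLDL, was higher in every exposed library, but by a smaller amount. It was at 1958 and 2068 CPM in the control libraries and at 1613 and 2123 CPM with atorvastatin. It was at 3741 and 4190 CPM with HCB and at 4825 and 3906 CPM with the combination. It passed the test in the combination against atorvastatin, at 1.22 ± 0.35 (SE) on the log2 scale, with adjusted p = 0.0262 in edgeR. In HCB against control it had 0.98 ± 0.35 (edgeR adjusted p = 0.0615), and DESeq2 gave adjusted p = 0.00094. The combination's call was lost without Atorvastatin replicate 1 (adjusted p = 0.121), without Atorvastatin plus HCB replicate 1 (0.173) and without Atorvastatin plus HCB replicate 2 (0.0783).

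The other genes of the Apoe cluster, Apoc1 and Apoc2, did not pass in either comparison. Apoc1, an inhibitor of lipoprotein uptake, was at 294 and 526 CPM in the control libraries and at 1156 and 523 CPM with HCB, so these groups overlapped. It was at 256 and 386 CPM with atorvastatin and at 664 and 495 CPM with the combination, which did not overlap. The values of Apoc1 were at 1.03 ± 0.43 (SE) on the log2 scale with adjusted p = 0.102 in edgeR and at 0.85 ± 0.43 (adjusted p = 0.162). HCB against control did pass for Apoc1 in DESeq2 (adjusted p = 0.035), without the filter on low counts (0.016) and without HCB replicate 2 (0.0396). Apoc2 was at 310 and 487 CPM in the control libraries and at 977 and 403 CPM with HCB, with 0.79 ± 0.43 (adjusted p = 0.194), or adjusted p = 0.0479 without HCB replicate 2. Apoc2 was at 290 and 407 CPM with atorvastatin and at 492 and 352 CPM with the combination, with 0.28 ± 0.43 (edgeR adjusted p = 0.649). HCB replicate 1 was the highest library for Apoc1 and Apoc2, and also for Apoa2, Apoc3 and Apoh.

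Apob, the structural protein of VLDL, did not pass in any comparison. It was at 16372 and 26660 CPM in the control libraries and at 13387 and 19269 CPM with atorvastatin. It was at 15947 and 17387 CPM with HCB and at 27269 and 21375 CPM with the combination. Its log2 fold change was -0.37 ± 0.45 (SE) in HCB against control (edgeR adjusted p = 0.574) and 0.57 ± 0.45 in the combination against atorvastatin (adjusted p = 0.359). Per length and without the normalisation factors, Apob was at 3199 and 3943 TPM in control against 1696 and 2327 TPM with HCB, which do not overlap, so its order depends on the scale. Apoh was at 2008 and 3158 CPM in the control libraries and at 4136 and 2595 CPM with HCB. It was at 1434 and 2641 CPM with atorvastatin and at 3456 and 2538 CPM with the combination. Both Apoh comparisons overlapped, with 0.38 ± 0.44 (adjusted p = 0.547) and 0.56 ± 0.44 (edgeR adjusted p = 0.36).

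In HCB against control, 4 of the 10 genes rose, 1 fell and 5 did not pass edgeR's test at an adjusted p under 0.05. The background over all 16591 genes was 13% higher and 13.9% lower. In this comparison 6 of the 10 did not overlap between groups, near the 64.5% of all genes that did not overlap, and the median log2 fold change of the 10 was 1.01 against -0.09 over all genes. In the combination against atorvastatin, 5 rose, 1 fell and 4 did not pass, against a background of 12.6% higher and 15% lower, with a median of 1.04 against -0.11. Here 8 of the 10 did not overlap between groups, near the 72% of all genes. Positive medians were not particular to the 10 genes. In the same order of comparisons, 11 hepatocyte markers had medians of 0.86 and 0.77. The 17 other apolipoprotein and HDL-associated genes described below had 0.88 and 1.00. These comparisons share no library with each other, but all 4 unexposed libraries stand apart as described above. The average of both comparisons, which reuses the same 8 libraries, had 6 higher and 1 lower against a background of 21.3% higher and 25.3% lower. In that average Apoe (1.10 ± 0.25, edgeR adjusted p = 0.00451) and Apoc1 (0.94 ± 0.31, adjusted p = 0.0265) joined Apoa1, Apoa2, Apoa4, Apoa5 and Apoc3. Apoc1 no longer passed when Control replicate 1 was left out (adjusted p = 0.102), and likewise for Atorvastatin replicate 1 (0.0703), HCB replicate 1 (0.107) and Atorvastatin plus HCB replicate 1 (0.0832). Without HCB replicate 2, Apoc2 passed as well (adjusted p = 0.0398).

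**Figure D3:**
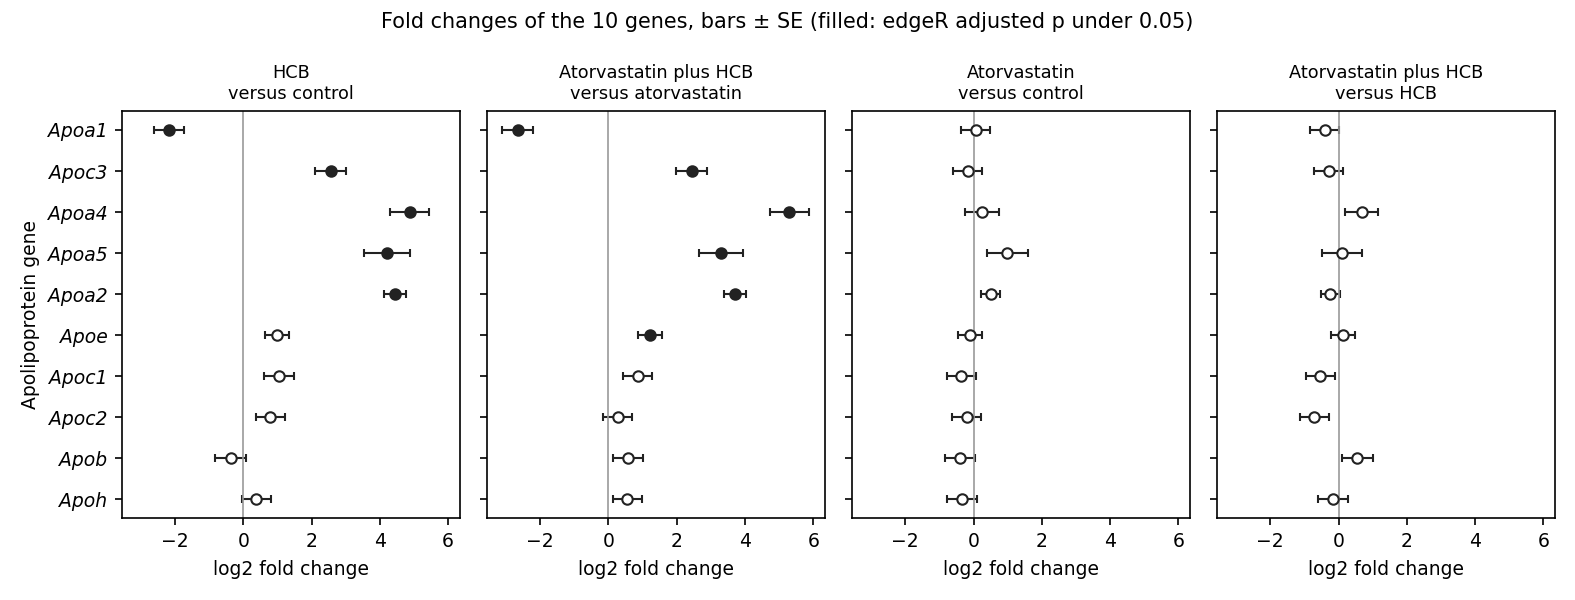
log2 fold change of each of the 10 genes (horizontal axis) in 4 comparisons, with bars of ± SE and filled points where the edgeR adjusted p is under 0.05. Filled points number 5 in HCB against control, 6 in the combination against atorvastatin and 0 in both atorvastatin comparisons.

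Within the clusters, neighbouring genes did not all move together. On chromosome 8, Apoa1 and Apoc3 lie side by side on opposite strands and differ in direction, at -2.18 and 2.56 on the log2 scale in HCB against control. The named neighbours with at least 1 CPM on average, Sik3 on one side and Zpr1 and Bud13 on the other, did not pass the test. Sik3, a kinase gene, had 0.08 (edgeR adjusted p = 0.839), Zpr1, a zinc finger gene, 0.64 (adjusted p = 0.0574) and Bud13, a splicing factor gene, 0.31 (adjusted p = 0.524). The same 3 genes had 0.49 (adjusted p = 0.152), 0.54 (0.098) and 0.09 (0.863) in the combination against atorvastatin. A gene without a symbol inside the span of Sik3, at 0.502 CPM on average, had -0.58 (adjusted p = 0.669) in HCB against control and -2.98 (adjusted p = 0.0376) in the combination against atorvastatin. On chromosome 1, Apoc4, which lies between Apoc2 and Apoc1, had -0.04 (adjusted p = 0.927) in HCB against control. Tomm40, beside Apoe, had 0.35 (adjusted p = 0.381). Clasrp, beyond Clptm1 and Relb on the far side of Apoc2, fell by 1.28 (adjusted p = 0.0258) and by 1.53 in the combination against atorvastatin (adjusted p = 0.0116).

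**Figure D4:**
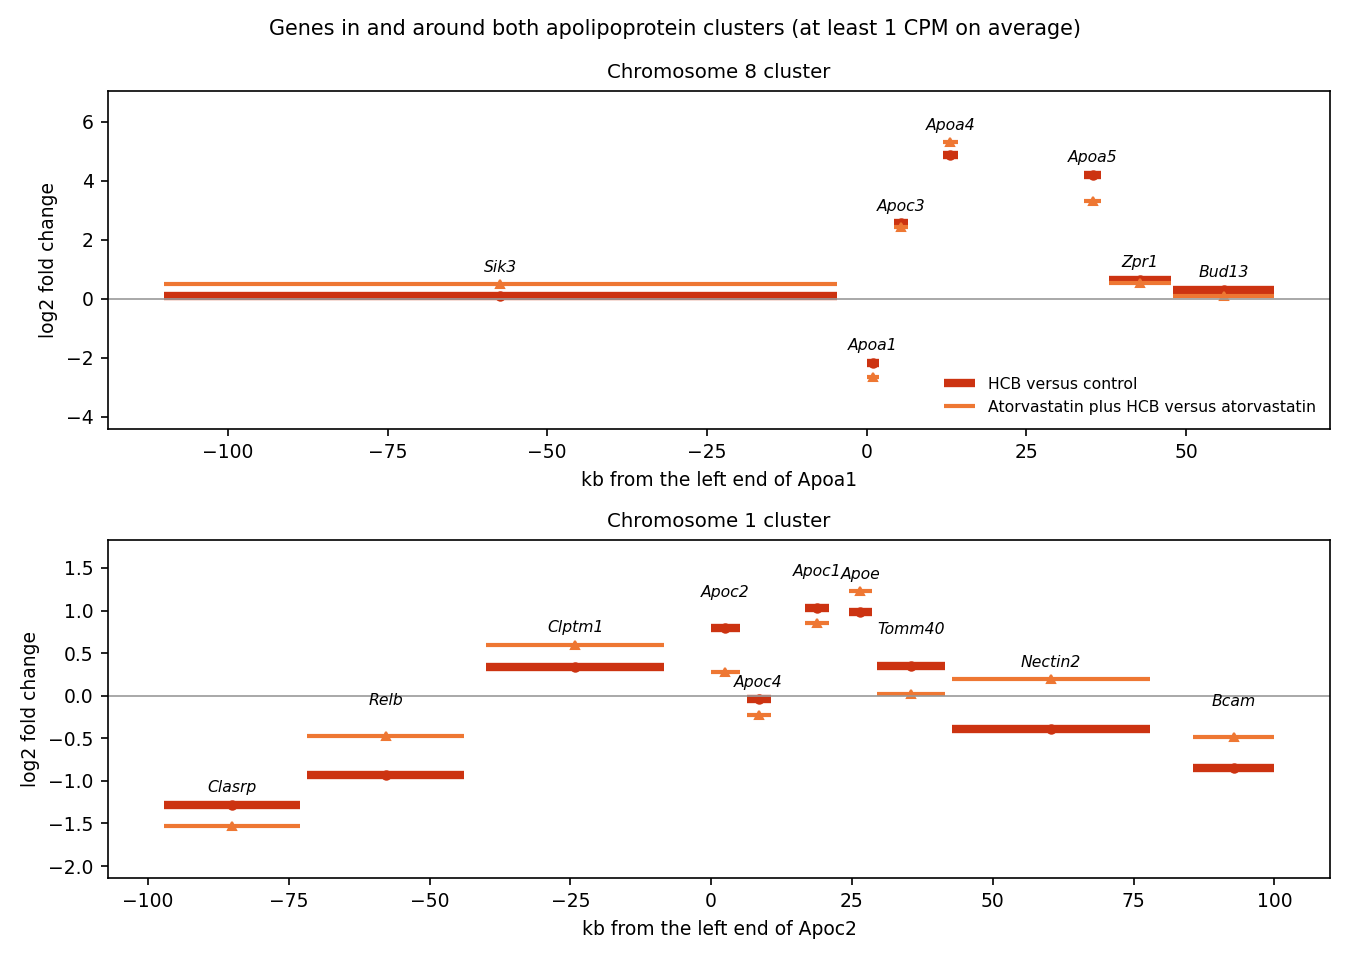
log2 fold change (vertical axis) of the genes in and around the chromosome 8 cluster and the chromosome 1 cluster. The horizontal axis is the distance in kb from the left end of Apoa1 or Apoc2. Thick bars are for HCB against control and thin bars for the combination against atorvastatin. Each bar is as long as the gene, except for Sik3, whose bars are cut at the left end. Apoc3, Apoa4 and Apoa5 stand above and Apoa1 below their neighbours Sik3, Zpr1 and Bud13, at 4.87 for Apoa4 and -2.18 for Apoa1, while Apoc2, Apoc1 and Apoe stand between 0.28 and 1.22.

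Across the 8 libraries, levels of the 10 genes on the log2 CPM scale are described by Pearson's r. It has no test here because the exposed and unexposed libraries stand apart, for whatever reason. Apoa4 and Apoe had r = 0.991, and Apoa4 and Apoa2 had r = 0.977. Apoa1 had r = -0.922 with Apoa4. Apoc1 followed Apoc2 at r = 0.936 and Apoh at 0.929. Apob was weakly related to all others, with r of at most 0.573. The gene most like each member over the 8 libraries was found by a rule, and no shared role is implied. It was Slitrk4 for Apoa1 (r = 0.995), LOC100360095 for Apoa2 (0.998), Xdh for Apoa4 (0.997), Nabp2 for Apoa5 (0.996) and Map1lc3b for Apoc3 (0.999). It was Atp5mk for Apoc1 (0.998), Mrpl49 for Apoc2 (0.986), Gdpd1 for Apoe (0.996), F2 for Apoh (0.985) and Prpf6 for Apob (0.946).

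Atorvastatin, whose effect on exposed livers is the comparison named in the study's title, gave no call among the 10 genes. In atorvastatin against control, 0 of 10 passed edgeR's test, where the background was 0% of 16591 genes, and 0 had an unadjusted p under 0.05. The log2 fold changes ran from -0.40 ± 0.45 (SE) for Apob to 0.99 ± 0.60 for Apoa5, all with adjusted p = 1. Apoa2 was higher in both atorvastatin libraries than in both controls, at 0.50 ± 0.29, where 21.1% of all genes did not overlap between these groups. The Apoa5 value was -0.41 without Atorvastatin replicate 2 and 1.84 without Control replicate 2. DESeq2 also called 0 of the 10, and 3 of all genes.

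For the combination against HCB, 0 of the 10 genes passed, the background was again 0%, and 0 had an unadjusted p under 0.05. Values ran from -0.71 ± 0.43 (SE) for Apoc2 to 0.67 ± 0.48 for Apoa4, with edgeR adjusted p = 0.892 to 0.992. Apob (0.55 ± 0.45) and Apoa5 (0.10 ± 0.59) were higher in both combination libraries than in both HCB ones, where 34.8% of all genes did not overlap. DESeq2 called 0 of the 10 here as well, and 47 of all genes. The interaction of both agents, a test of whether the HCB difference changes with atorvastatin, passed for 0 of the 10, against 0% of all genes, from -0.89 ± 0.84 for Apoa5 to 0.94 ± 0.64 for Apob. The average effect of atorvastatin passed for 0 of the 10, against 0%, from -0.45 ± 0.30 for Apoc2 to 0.54 ± 0.42 for Apoa5, and 0 had an unadjusted p under 0.05 in either. DESeq2 called 0 of the 10 in both. In the comparison of the combination with HCB, the SE ran from 0.28 for Apoa2 to 0.59 for Apoa5 on the log2 scale, which limits how small a change could be called.

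Other genes of lipoprotein metabolism were grouped in lists chosen with earlier results of these data known, and are given as counts of edgeR calls, to be read against the background of 13% higher and 13.9% lower over all genes in HCB against control and 12.6% higher and 15% lower in the combination against atorvastatin. Of 17 other apolipoprotein and HDL-associated genes, 6 rose and 2 fell in HCB against control, and 8 and 3 in the combination against atorvastatin. Pon1, a paraoxonase carried on HDL, rose by 3.00 on the log2 scale with adjusted p = 0.00036, and Pon3 and Apol9a by 2.26 and 2.84. The second count of 11 was 6 without Atorvastatin plus HCB replicate 1. Of 6 genes listed for HDL formation and remodelling, 2 rose in HCB against control, the sterol exporters Abcg8 at 2.47 and Abcg5 at 2.38. Among the 4 that did not pass, Abca1 had -0.67 (edgeR adjusted p = 0.0916), Abcg1 -0.62 (0.0914) and Lcat 0.72. Against atorvastatin, the combination had 0 that passed in edgeR, 1 had an unadjusted p under 0.05 and DESeq2 called 1, and without Atorvastatin replicate 2 edgeR called 4.

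Of 18 genes for the assembly and secretion of Apob particles, 5 rose and 0 fell in HCB against control, and 6 and 0 in the combination against atorvastatin. Cideb, which loads lipid onto VLDL, had 1.85 on the log2 scale, and Sec23a and Sar1b, of the coat of export vesicles, had 1.47 and 1.45. Without Control replicate 1 the first count was 1. The second was 1 without Atorvastatin replicate 1, 1 without Atorvastatin plus HCB replicate 1 and 3 without Atorvastatin plus HCB replicate 2. Of 4 genes for Apob mRNA editing, 2 rose in each comparison, A1cf at 1.20 and Rbm47 at 0.72 in HCB against control. That count of 2 was 0 without Control replicate 1, Control replicate 2 or HCB replicate 2, and 1 without HCB replicate 1 or either combination library. The corresponding count in the combination against atorvastatin was 1 without Atorvastatin replicate 2 or either combination library.

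Of 13 lipoprotein receptors and uptake genes, 3 rose and 1 fell in HCB against control, and 4 and 1 in the combination against atorvastatin. Lrp2, also called megalin, rose by 2.97 on the log2 scale with adjusted p = 9.82e-05, Lsr, a receptor for triglyceride-rich particles, rose by 0.98 and Mylip, which degrades the LDL receptor, fell by 1.50. The count of 4 was 1 without Control replicate 1. The count of 5 was 1 without Atorvastatin replicate 1 and 2 without either combination library. Of 9 lipases and their regulators that could be tested, 4 rose and 1 fell in each comparison. Lpl, which lipolyses triglyceride at the vessel wall and is found in fetal but little in adult rat liver, fell by 4.52. Pcsk5, a protease that can cleave lipases, and Lmf1, needed for their maturation, rose by 1.27 and 1.15. The count of 5 in HCB against control was 1 without Control replicate 1 or HCB replicate 2 and 3 without HCB replicate 1, and in the combination it was 3 without Atorvastatin plus HCB replicate 1.

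Of 28 transcription factors chosen as regulators of apolipoprotein genes, 5 rose and 4 fell in HCB against control, and 7 and 3 in the combination against atorvastatin. Both counts in HCB against control, and the count that fell in the other, are near the share of all genes. Esr1, the estrogen receptor, was at 0.186 CPM in control and 39.2 CPM with HCB on average. Ppargc1a fell by 2.27 on the log2 scale with adjusted p = 0.00116, and Nr1h3, a sterol sensor, rose by 1.30 (adjusted p = 0.00264). The count of 9 was 5 without Control replicate 1. The count of 10 was 6 without Atorvastatin replicate 1, 4 without Atorvastatin replicate 2, 4 without Atorvastatin plus HCB replicate 1 and 5 without Atorvastatin plus HCB replicate 2. In edgeR, 0 genes of all these lists passed in atorvastatin against control, in the combination against HCB and in the interaction, and DESeq2 called 0 there too. The counts with an unadjusted p under 0.05 were 6, 4 and 2.

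Several sets of markers of cell types that the tissue could hold differed between exposed and unexposed libraries. Their part in the results above was not tested. Counts of markers that rose or fell are edgeR calls in HCB against control, where 13% of all genes were higher and 13.9% lower. Of 11 hepatocyte markers, 4 rose. Their summed level was 83593 to 164569 CPM in unexposed libraries and 143262 to 212969 CPM in exposed ones. Of 7 erythroid markers 7 fell, with sums of 1852 to 4617 CPM against 285 to 1284 CPM. Of 7 neutrophil markers 7 fell, with sums of 130 to 222 CPM against 0.401 to 3.17 CPM, and Ctsg was at 0 in the exposed groups. Macrophage markers, of cells that make Apoe, summed to 317 to 531 CPM against 398 to 640 CPM, and 2 of 10 rose and 1 fell. Endothelial markers, of which 1 of 8 rose and 3 fell, summed to 834 to 1040 CPM against 662 to 792 CPM. Stellate and fibroblast markers, of which 1 of 8 rose and 2 fell, summed to 1081 to 3835 CPM against 601 to 786 CPM. Of 5 bile duct markers 2 rose and 1 fell, and of 7 lymphocyte markers 0 rose and 1 fell. The sums of both sets overlapped between exposed and unexposed libraries. Apoa1, Apoa2, Apoa4, Apoa5 and Apoc3 passed in both HCB comparisons without the 2 libraries with most reads outside exons.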

How the data were processed

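RNA-seq was analysed in 8 rat liver libraries, 2 per group, grouped by the treatment in the labels. Values are read counts per gene, as deposited. The authors obtained these counts with featureCounts 2.0.6 over the exons of Ensembl release 111 (mRatBN7.2), per the file headers, with no option for strand, multimapping reads or read pairs. The tools fastp 0.23.4 and STAR 2.7.10b, and R 4.3.2 with DESeq2 1.42.1, are named in the submitters' processing notes. All assignment classes add up to 2.04 times the stated number of read pairs, so mates appear to have been counted singly, and a trial with halved counts stood beside the main test. The table's count columns were all used (0 left out).

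Tests used edgeR 4.0.16 under R 4.3.3, by the quasi-likelihood test with robust estimation, TMM normalisation and filterByExpr, in 1 model of 4 groups that left 4 residual degrees of freedom. The comparisons were HCB against control, the combination against atorvastatin, atorvastatin against control, the combination against HCB, the interaction, and each agent's average effect. Adjusted p-values (Benjamini-Hochberg, over all 16591 genes tested) had a threshold of 0.05, and the common biological coefficient of variation was 0.295. CPM use the normalised library size, log values a prior count of 2, and TPM the table's exonic length. Each library is a separate rat per the labels, so 2 rats per group set the precision. The test was checked on simulated data. The alternatives were DESeq2 1.42.0, other scalings and filters, a replicate block, leaving out each library and leaving out the 2 libraries with most reads outside exons.

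The 10 genes and all lists were chosen with earlier results of these data known. The text names all 10 genes, and from each list up to 3 genes past the threshold with the smallest p in HCB against control. It also names the gene most correlated with each of the 10, genes that overlap one of them, the Y-linked genes and Afp. The same rule applied to the combination against HCB gave up to 2 genes per list with none past the threshold, which are among the other observations. The neighbours of both gene clusters and the ratios between members were chosen after their values were seen.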

Additional observations from a re-analysis of the deposited data

How the results depend on the processing

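A total of 19 alternatives were run for the single comparisons, 8 of which left out 1 library each. Where leaving out a library left a group with 1 sample, that sample was assumed to vary like the other groups. Of 18 calls of members in the HCB comparisons and their average, 16 held in every alternative run. The exceptions were Apoe in the combination against atorvastatin and Apoc1 in the average. Besides the left-out libraries given with the results, Apoe lost its call with library totals in place of TMM factors (0.62, adjusted p = 0.0767), without both libraries with most reads outside exons (1.04, adjusted p = 0.0983) and with the libraries of both groups alone (1.23, adjusted p = 0.0531). Apoc1 lost it with library totals (0.44, adjusted p = 0.131) and without both libraries with most reads outside exons (0.63, adjusted p = 0.208). Apoe in HCB against control passed without Atorvastatin replicate 1 (adjusted p = 0.0453) or Atorvastatin replicate 2 (0.0458). The cause of these changes was not tested.

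Library totals moved the median log2 fold change of all genes to -0.53 in HCB against control and -0.73 in the combination against atorvastatin, from -0.09 and -0.11, and upper quartile factors to -0.20 and -0.27. Totals gave, in the combination against atorvastatin, -3.27 for Apoa1, 3.09 for Apoa2 and 1.85 for Apoc3, each still past the threshold. Without both libraries with most reads outside exons, Apoa5 had 2.61 in the combination against atorvastatin and 3.14 in the average. Of 70 values of members, 35 changed sign in some alternative, and 0 of these were called. With totals the reversed log2 values were -0.02346 for Apoh in HCB against control, and -0.02675 for Apob, -0.3307 for Apoc2 and -0.02498 for Apoh in the combination against atorvastatin. In the average of HCB they were -0.3907 for Apob and -0.02422 for Apoh with totals, and for Apob -0.02866 with upper quartile factors and -0.1725 without both libraries with most reads outside exons. Over the left-out libraries, Apob spanned -0.6797 to 0.05504 in HCB against control and -0.0496 to 0.3304 in the average. Apoa5 spanned -0.4129 to 1.839 in atorvastatin against control, -1.738 to 0.5124 in the interaction and -0.1566 to 0.9702 in the average of atorvastatin. Apoa4 in the combination against HCB spanned -0.04857 to 1.157 and Apoc2 there -1.207 to 0.07081. With DESeq2 size factors 40 of 40 group levels moved by less than 1 SD, and with totals 28 of 40.

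The replicate numbers were not treated as pairs in the main test. Deviations of same-numbered libraries correlated at 0.27 between control and atorvastatin and at -0.05 to 0.05 between the other groups. With 2 libraries per group, these values cannot show whether libraries were paired. With the replicate block 5, 6 and 7 members were called in HCB against control, in the combination against atorvastatin and in the average, as without it. Called members of lists depend on more. Without the 2 libraries with most reads outside exons, every list but that of HDL formation and remodelling had fewer calls in both HCB comparisons. With 2 rats per group and 4 residual degrees of freedom, the changes of Apob, Apoc2 and Apoh were not called in the main test. Their SE in HCB against control were 0.45, 0.43 and 0.44. Rbm47, at 0.72 with an SE of 0.24, was called there, so the spread of a gene counts as well as its size of change.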

Other observations

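In the combination against HCB, the genes with the smallest p in each list of lipoprotein metabolism did not pass edgeR's test, all with adjusted p = 0.892. Angptl4 and Angptl8, which inhibit lipoprotein lipase, had log2 fold changes of 1.36 and 1.08. Nr1d1, a repressor in the circadian clock, had -2.53 and Foxa1, a liver transcription factor, 0.63. The sterol exporters Abcg5 and Abcg8 had -1.15 and -0.83. Clu, an apolipoprotein also called Apoj, had 0.53, and Apod was at 0 CPM in the combination and 0.0584 CPM with HCB on average, for which no fold is given. Among assembly genes, Pla2g12b had -0.57 and Tm6sf2 0.58. Among receptors, Lrp1, which takes up Apoe-bearing remnants, had 0.60 and Lrp2 had 0.49. Of the editing genes, Rbm47 had 0.29 and Syncrip -0.29.

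The Apoc1 to Apoc2 ratio per length was 0.206 to 0.253 in the 4 unexposed libraries and 0.277 to 0.328 in the 4 HCB-exposed ones. These ranges were close but did not overlap, and their level rests on the exonic length given for Apoc1. The Apoa1 to Apoa4 ratio per length went from 275 to 529 in unexposed libraries to 1.20 to 4.80 in exposed ones. These ratios were chosen after their values were seen, and have no test.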
